A study of Mus musculus with 9 samples.

Results

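Mitochondrial ribosomal protein genes encode the proteins of the ribosome that works inside mitochondria. They were chosen by name: every row of the count table whose Ensembl identifier belongs to a protein-coding gene with a symbol of the form Mrpl or Mrps followed by a number. This gave 78 of 22165 gene rows, 49 named for the large subunit (Mrpl) and 29 named for the small subunit (Mrps). No pseudogene row matched the symbol. The genes lie on 17 chromosomes, and chromosome 11 holds the most, with 8 large-subunit and 3 small-subunit genes.

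The series measured messenger RNA in bone marrow-derived macrophages, cells that are differentiated in culture from the bone marrow of mice, here mice of the C57BL/6N strain aged 6 to 16 weeks. All cells received lipopolysaccharide (LPS), a bacterial cell wall component that activates macrophages, at 100 ng/mL for 24 h. The WT group was wild type with LPS alone, the KO group lacked Irg1 and received LPS alone, and the ITA group lacked Irg1 and received LPS followed after 4 h by 1 mM itaconate. The product of Irg1 (Acod1) makes itaconate from an intermediate of the tricarboxylic acid cycle, and there were 3 libraries in each group. No group without LPS was used here. Nothing states that the replicates are different animals or cultures, and p-values therefore rest on a spread between libraries that may be technical.

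Mitochondria keep a small genome that encodes core subunits of the respiratory chain, and a dedicated ribosome translates those messages. Its RNA is mitochondrial, whereas its proteins are encoded in the nucleus, made in the cytosol and imported. Many of these proteins have a counterpart in the bacterial ribosome, and the others are specific to mitochondria. The small subunit reads the message, and the large subunit forms the peptide bond and passes the new protein to the inner membrane. In macrophages activated with LPS, respiration and the tricarboxylic acid cycle are known to be remodelled.

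Symbols do not always give the place of a protein. Mrps18a and Mrps30 sit in the large subunit of the mammalian mitochondrial ribosome despite their names, and the product of Mrps36 is a component of the 2-oxoglutarate dehydrogenase complex. By place the set therefore holds 51 large-subunit and 26 small-subunit proteins. Of the large-subunit proteins 30 have a bacterial counterpart and 21 are specific to mitochondria, and of the small-subunit proteins the numbers are 16 and 10. Subunits are given by symbol below unless place is named.

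Promoters of 69 of the 78 genes were found in the RefSeq table of the GRCm38.p6 build, which spans 250 bases before to 50 bases after each start. They were searched on both strands for the core letters bound by 3 factors known for nuclear genes of mitochondrial proteins. The palindrome of nuclear respiratory factor 1 (NRF1), GCGCA followed directly by its reverse complement, was found in 3 promoters, those of Mrpl9, Mrpl32 and Mrpl39, or 4.3%, beside 2.5% of the 8591 promoters of tested genes and 1.1% of all 27025. The letters CCGGAAG of the ETS family, to which the factor GABPA belongs, were found in 26 promoters or 37.7%, beside 22% and 9.9%. The letters AAGATGG of YY1 were found in 13 promoters or 18.8%, beside 9.0% and 7.3%. Matches of 2 motifs shared bases in 0 of the 69 promoters. A match describes letters only. It does not show that a factor binds there.

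The 3 promoters with the NRF1 palindrome are shown because their genes share these letters and yet differed in the library labelled ITA replicate 3, where Mrpl9 was at its highest and Mrpl32 and Mrpl39 were at their lowest. Each line gives the 150 bases before the RefSeq start on the gene's own strand, 5′ to 3′, with the palindrome in capitals. The stretches are chr3:94443186-94443335 on the plus strand for Mrpl9, chr13:14613038-14613187 on the minus strand for Mrpl32 and chr16:84735245-84735394 on the minus strand for Mrpl39. The palindrome begins 28, 87 and 125 bases before the start.
Mrpl9: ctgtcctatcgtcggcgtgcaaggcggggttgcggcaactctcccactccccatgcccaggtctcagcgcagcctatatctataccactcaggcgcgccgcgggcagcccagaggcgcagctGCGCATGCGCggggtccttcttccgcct
Mrpl32: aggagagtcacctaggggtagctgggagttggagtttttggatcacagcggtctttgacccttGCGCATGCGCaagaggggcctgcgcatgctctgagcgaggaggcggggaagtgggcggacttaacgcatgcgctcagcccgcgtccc
Mrpl39: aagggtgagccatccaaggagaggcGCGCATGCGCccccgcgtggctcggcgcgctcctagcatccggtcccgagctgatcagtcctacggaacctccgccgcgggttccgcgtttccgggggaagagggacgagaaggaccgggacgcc

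Promoters with the ETS letters are shown for 4 genes picked because each was at its lowest in the library labelled ITA replicate 3. Of the 24 tested genes with these letters 13 (54.2%) were lowest there, beside 51.3% of the tested set, and Mrpl43, which also has them, was at its highest there. The 4 are Mrpl58 (chr11:115403602-115403751, plus strand), Mrpl51 (chr6:125192050-125192199, plus strand), Mrps22 (chr9:98601680-98601829, minus strand) and Mrps18a (chr17:46110854-46111003, plus strand). Capitals mark CCGGAAG, which begins 17, 90, 11 and 26 bases before the start in that order.
Mrpl58: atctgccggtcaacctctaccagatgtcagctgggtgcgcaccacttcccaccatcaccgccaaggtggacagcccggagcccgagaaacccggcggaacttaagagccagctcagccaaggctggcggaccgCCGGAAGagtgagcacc
Mrpl51: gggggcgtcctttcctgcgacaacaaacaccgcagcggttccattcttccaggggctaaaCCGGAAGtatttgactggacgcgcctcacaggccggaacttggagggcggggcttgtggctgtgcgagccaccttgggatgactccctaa
Mrps22: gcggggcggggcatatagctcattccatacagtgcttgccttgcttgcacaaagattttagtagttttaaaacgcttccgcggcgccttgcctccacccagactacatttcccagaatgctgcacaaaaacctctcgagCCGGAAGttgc
Mrps18a: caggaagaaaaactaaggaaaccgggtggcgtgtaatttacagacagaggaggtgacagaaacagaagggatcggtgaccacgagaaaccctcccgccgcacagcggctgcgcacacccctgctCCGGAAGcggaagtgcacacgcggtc

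Mrpl46 and Mrps11, a large-subunit and a small-subunit gene, start head to head on opposite strands. The stretch between their RefSeq starts is 41 bases long, at chr7:78783090-78783130, and is shown on the plus strand because both genes are transcribed outward from it.
Mrpl46 to Mrps11: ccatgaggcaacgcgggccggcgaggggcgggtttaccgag

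Before the groups are compared, the labels need a check. Of Irg1, the targeted gene, the WT libraries held 94, 117 and 31169 reads in replicate order, the KO libraries 154, 170 and 44920, and the ITA libraries 94, 8 and 60716. They go against the labels of 4 libraries: WT replicates 1 and 2, which are low, and KO replicate 3 and ITA replicate 3, which are high. Groups below are as labelled, and each direction between them carries this conflict. The library labelled ITA replicate 3 also stood apart from the rest, correlating with the others at 0.926 on average, whereas for each of the other 8 this mean was 0.949 to 0.963. Results are therefore given also without that library, and without all 4. The latter leaves WT replicate 3, KO replicates 1 and 2, and ITA replicates 1 and 2. Comparisons with WT then rest on 1 WT library. All 8 macrophage markers averaged at least 1 CPM, which is reads scaled to a common library total, and their summed level ran from 7440 to 9690 CPM in WT, 6700 to 7160 in KO and 3670 to 7260 in ITA. Neutrophil markers summed to 232 to 245, 161 to 210 and 78.0 to 214 CPM in the same order, with 2 of 5 genes at 1 CPM or more, and fibroblast markers to 166 to 271 CPM over all libraries, with 4 of 4. No lymphocyte, dendritic or mast cell marker averaged 1 CPM, and Cd3e, Cd79a and Cpa3 had no read. In bulk RNA, fewer cells of a type and less RNA per cell cannot be told apart.

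Gene reads per library ranged from 7361671 to 20430359, so that 3 reads correspond to 0.147 to 0.408 CPM. Mitochondrial ribosomal protein genes took up 0.332% of gene reads in the library labelled WT replicate 1 (95% Wilson interval 0.328% to 0.336%), the highest share. They took up 0.204% (0.201% to 0.206%) in that labelled ITA replicate 3, the lowest. Intervals and floors cover counting error only. Levels are CPM scaled by trimmed mean of M-values (TMM) factors, which adjust for depth and composition. The reads come from 3′ ends, so CPM were not divided by transcript length, and the order of genes by CPM is an order of reads captured, not of molecules.

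Most of the set was well measured: 76 of 78 genes passed the filter on low counts. The exceptions were Mrps23, with 0 reads in every library, and Mrpl53, with 2 reads, both in the library labelled KO replicate 1. Exons of Mrpl53 are overlapped over 88.0% of their length, on the same strand, by the protein-coding gene Gm42688, and the part of this overlap in its count was not tested. For Mrps23 a count of 0 would allow up to 0.147 to 0.408 CPM, depending on the library, if the authors' counting could assign reads to it, which is not known. Among the tested genes the mean level over 9 libraries had a median of 26.9 CPM in the large subunit and 28.9 CPM in the small subunit, beside 21.9 CPM over all 10781 tested genes.

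**Figure D1:**
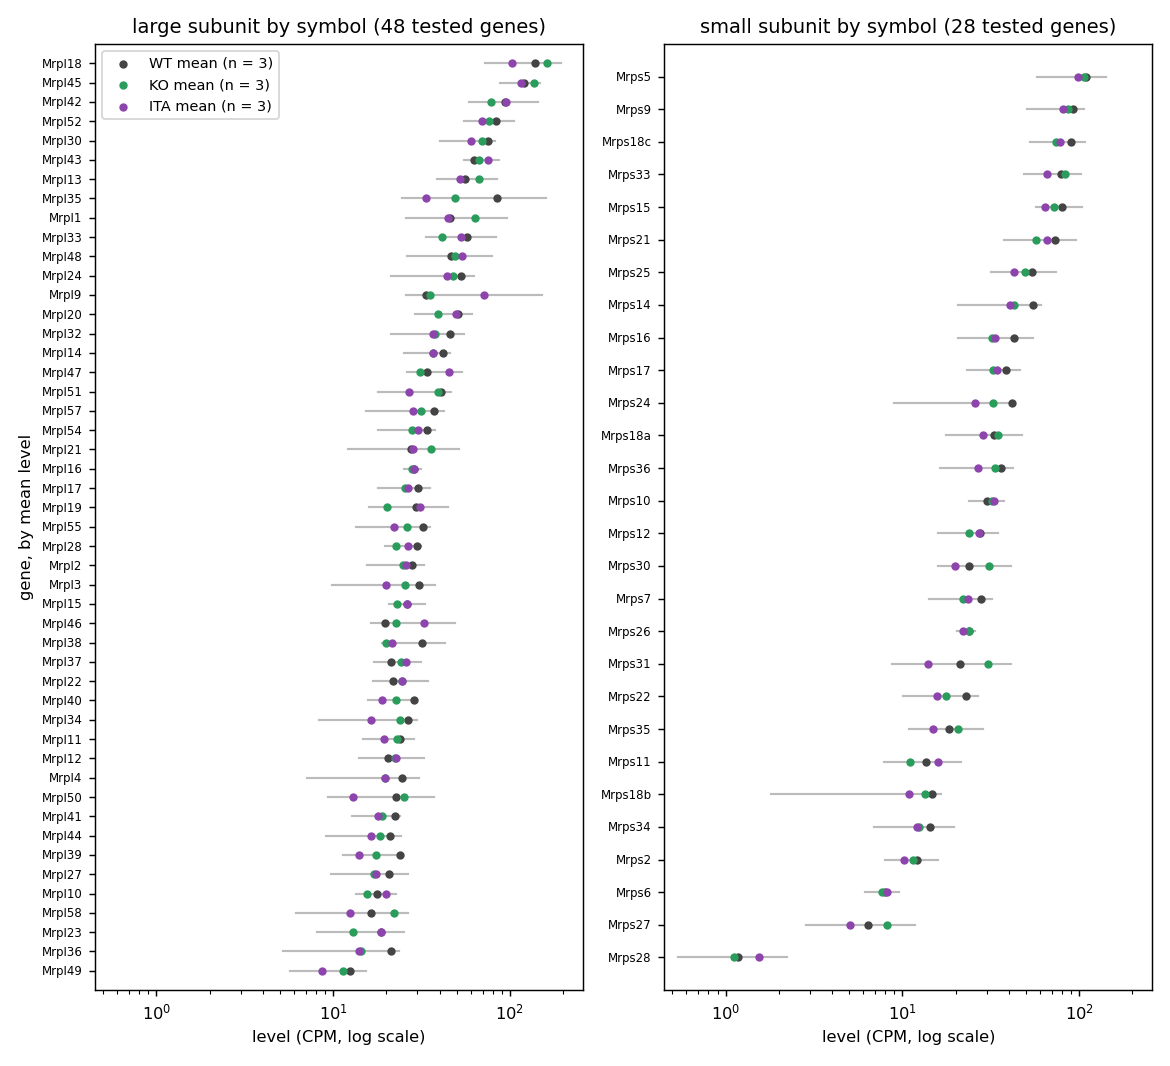
Level of each tested gene in CPM on a log axis, by subunit and ordered by mean level. Points are the means of the 3 libraries of a labelled group and grey lines run from the lowest to the highest of the 9 libraries. Large-subunit means run from 10.8 to 135 CPM and small-subunit means from 1.28 to 105 CPM, with long lines for Mrpl35, Mrpl9 and Mrps18b.

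At the top of the large subunit stood Mrpl18, homolog of the bacterial protein that binds 5S ribosomal RNA, Mrpl45, which lies at the exit of the peptide tunnel facing the inner membrane, and Mrpl42. Mrpl18 (chr17:12911349-12916345) was at 171, 133 and 114 CPM in WT, 181, 195 and 109 CPM in KO, and 134, 102 and 72.5 CPM in ITA. Mrpl45 (chr11:97315716-97329920) was at 136, 99.1 and 127 CPM in WT, 129, 138 and 145 CPM in KO, and 88.4, 148 and 110.1 CPM in ITA. The ranges of the 2 genes overlapped in each group, so their order is not separated from the spread between libraries. Mrpl42 stood at 125, 79.9 and 78.0 CPM in WT, 88.8, 67.2 and 79.3 CPM in KO, and 82.8, 58.3 and 145 CPM in ITA. Its highest value was in the library labelled ITA replicate 3, where Mrpl18 was at its lowest. At the bottom were Mrpl49, at 5.70 to 15.4 CPM, and Mrpl36, homolog of the smallest bacterial large-subunit protein, at 5.18 to 23.7 CPM.

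In the small subunit the highest levels belonged to Mrps5, Mrps9 and Mrps18c, all with bacterial counterparts. Mrps5 (chr2:127587222-127606829) was at 117, 111 and 100.2 CPM in WT, 141, 109.9 and 70.4 CPM in KO, and 105, 134 and 58.0 CPM in ITA. Mrps9 (chr1:42851233-42905683) was at 94.3, 76.0 and 106 CPM in WT, 63.6, 102 and 93.9 CPM in KO, and 106, 86.2 and 50.4 CPM in ITA. Both were lowest in the library labelled ITA replicate 3, and their ranges overlapped in each group. Mrps28, homolog of bacterial S1, was the lowest tested gene at 0.535 to 2.22 CPM. Mrps27, an RNA-binding pentatricopeptide repeat protein, was at 4.80, 5.39 and 9.10 CPM in WT, 11.7, 8.77 and 3.94 CPM in KO, and 2.86, 4.50 and 7.72 CPM in ITA, with all 3 groups overlapping.

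The 3 Mrps18 paralogs differ in level. They are related to each other in sequence, and only Mrps18c is counted here among the genes with a bacterial counterpart. Mrps18c averaged 89.6 ± 23.0 CPM in WT, 73.9 ± 24.8 in KO and 77.5 ± 21.3 in ITA (SD, n = 3). Mrps18a, the paralog of the large subunit, averaged 33.2 ± 2.58, 34.6 ± 11.5 and 28.7 ± 11.7 CPM. Mrps18b averaged 14.7 ± 0.755, 13.4 ± 2.85 and 10.96 ± 7.93 CPM. The order c, a, b held in each of the 9 libraries. Gm43511, an annotated transcript still awaiting experimental support, overlaps 23.2% of the exon length of Mrps18c on the same strand.

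Variation of the set was slightly below that of tested genes in the same range of levels. The coefficient of variation over 9 libraries had a median of 26.6% in the set and 31.1% over the 8822 tested genes in that range. Those 8822 include the set, and their mean levels had a median of 18.5 CPM, beside 26.9 CPM in the set. The part of level in this difference was not tested. Mrpl16, homolog of a bacterial protein near the peptidyl transferase centre, varied least, at 7.5%, from 25.3 to 31.4 CPM. Mrps26 followed at 8.4%, from 20.3 to 25.7 CPM. Mrpl9 varied most, at 86.0%, and Mrpl35 came next, at 71.7%.

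KO was set against WT to ask what loss of Irg1 does to the set. No gene of the set passed the test, and the fold changes leaned low. In edgeR's quasi-likelihood test with Benjamini-Hochberg adjustment over all tested genes, 0 of 76 genes were called at an adjusted p of 0.05, beside 0% of all tested genes. At an unadjusted p under 0.05 there was 1 gene of 76, Mrpl38, beside 3.13% of all genes. DESeq2 called 1 gene in the whole table, or 0.00928%, and limma-voom called 0, or 0%. Neither called a gene of the set. The standard error of a log2 fold change in the set had a median of 0.33, so small shifts were not detectable gene by gene.

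The log2 fold change of KO against WT was below 0 for 55 of 76 genes, beside 51.1% of all tested genes. Its median was -0.17 over 48 large-subunit genes and -0.12 over 28 small-subunit genes, beside -0.01 over all. Without the library labelled KO replicate 1, 43 genes were below 0 and the medians were -0.05 and -0.02. Without the 4 libraries in conflict with their labels, which leaves 1 WT library, 48 were below 0 and the medians were -0.32 and -0.14. Pools were read from the number before the barcode in the labels, which do not define it. Within pool 1, so read, which holds all WT libraries and KO replicates 1 and 2, 55 were below 0. The medians there were -0.22 and -0.18.

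By origin, 23 of 30 large-subunit and 15 of 16 small-subunit genes with a bacterial counterpart were below 0 in KO against WT, with medians of -0.18 and -0.22. Of the genes specific to mitochondria, 11 of 20 and 5 of 9 were below 0, with medians of -0.09 and -0.01. Without the 4 libraries in conflict the counts were 22 of 30 and 12 of 16 for the first class and 9 of 20 and 4 of 9 for the second. Without the library labelled KO replicate 1 they were 18 of 30 and 10 of 16, with medians of -0.09 and -0.09, for the first class and 9 of 20 and 6 of 9 for the second. The difference between the classes was not tested.

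In 8 genes every KO library lay below every WT library: Mrpl23, Mrpl28, Mrpl33, Mrpl36, Mrpl38, Mrpl39, Mrpl40 and Mrps24. No gene had every KO library above. Over all tested genes the shares were 5.76% below and 4.85% above. Mrpl38 (chr11:116131817-116138868), a mitochondria-specific protein of the central protuberance of the large subunit, was at 26.0, 26.5 and 43.0 CPM in WT, 19.0, 20.7 and 20.0 CPM in KO, and 19.8, 20.1 and 24.8 CPM in ITA. The KO libraries were close together, and the library labelled WT replicate 3 was the highest. The log2 fold change was -0.68 ± 0.28 (SE), and the edgeR adjusted p was 0.995.

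Mrpl40 (chr16:18872018-18876862), also of the central protuberance, was at 29.8, 28.7 and 27.8 CPM in WT, 21.6, 22.8 and 24.1 CPM in KO, and 22.2, 18.9 and 15.7 CPM in ITA. The WT libraries formed a tight group above all the others. Mrpl39 (chr16:84717576-84735742), a mitochondria-specific protein and a carrier of the NRF1 palindrome shown above, was at 22.7, 24.4 and 24.8 CPM in WT, 15.8, 22.5 and 14.4 CPM in KO, and 17.6, 13.1 and 11.3 CPM in ITA. Its KO and WT groups were separated only by the narrow gap between 22.5 and 22.7 CPM. The log2 fold changes of KO against WT were -0.33 ± 0.26 for Mrpl40 and -0.45 ± 0.29 for Mrpl39.

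Mrpl35 had the second smallest p of the large subunit in this comparison, and the difference rested on 1 library. It was at 159, 53.3 and 41.1 CPM in WT, 49.4, 50.9 and 47.2 CPM in KO, and 42.0, 33.8 and 24.4 CPM in ITA. The library labelled WT replicate 1 held 2.99 times the next highest level. The log2 fold change of -0.78 ± 0.42 became 0.06 without that library and 0.31 without the 4 libraries in conflict.

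Among small-subunit genes with the smallest p, Mrps31 and Mrps30 stood higher in KO. Mrps31 (chr8:22411361-22429665), a mitochondria-specific small-subunit protein, was at 29.4, 18.3 and 16.1 CPM in WT, 41.0, 31.1 and 19.5 CPM in KO, and 22.4, 10.6 and 8.78 CPM in ITA. Mrps30, which sits in the large subunit, was at 27.8, 20.9 and 22.7 CPM in WT, 41.4, 26.3 and 24.5 CPM in KO, and 22.4, 21.6 and 15.9 CPM in ITA. In both genes the library labelled KO replicate 1 was the highest of the 9 and the KO and WT ranges overlapped. The log2 fold changes were 0.53 ± 0.39 and 0.37 ± 0.29, both with an edgeR adjusted p of 0.995. Mrps22, mutated in a human mitochondrial disease, was at 19.4, 26.7 and 22.6 CPM in WT, 13.2, 18.1 and 21.4 CPM in KO, and 20.8, 16.2 and 10.1 CPM in ITA, with KO and WT overlapping.

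**Figure D2:**
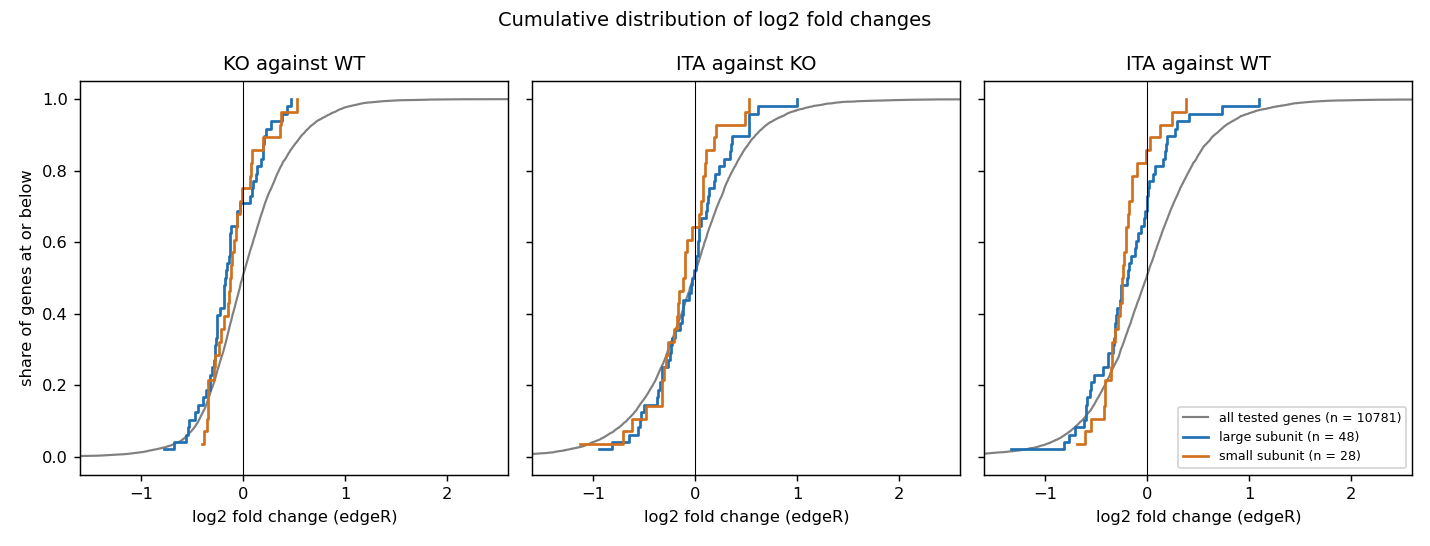
Cumulative distribution of log2 fold changes in the 3 comparisons, for large-subunit genes, small-subunit genes and all 10781 tested genes. The vertical axis is the share of genes at or below a value. Both subunits lie left of all genes in KO against WT and in ITA against WT, with medians of -0.17 and -0.12 and of -0.19 and -0.25, and near all genes in ITA against KO.

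ITA was set against KO to ask what itaconate added to cells without Irg1 does. No gene of the set was called by edgeR (0 of 76, beside 0% of all tested genes). At an unadjusted p under 0.05 there were 3, Mrps31, Mrpl50 and Mrpl58, beside 8.3% of all genes. DESeq2 called 12 genes in the whole table (0.111%) and limma-voom 0 (0%), none of them in the set. The log2 fold change was below 0 for 43 of 76 genes, beside 51.6% of all, with medians of -0.02 in the large and -0.11 in the small subunit and -0.02 over all genes. Without ITA replicate 1, 57 were below 0 and the medians were -0.22 and -0.23, beside -0.05 over all genes. In that fit 9 of 76 genes had an unadjusted p under 0.05 in edgeR, beside 1389 of all 11033 tested genes.

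The lean of this comparison changed with single libraries left out. Without the library labelled ITA replicate 3, 32 of 76 genes were below 0 and the medians were 0.07 and 0.09. Leaving out the library labelled KO replicate 2 gave 35 below 0, with medians of 0.01 and -0.04. Without the 4 libraries in conflict, 31 were below 0 and the medians were 0.11 and 0.17. Without the library labelled KO replicate 1, 55 were below 0, with medians of -0.18 and -0.16. With the pool as a further term, 34 were below 0. ITA replicates 2 and 3 are each alone in a pool and carry no weight in that fit. It sets ITA replicate 1 against KO replicate 3, the libraries of pool 2, with 1 library on each side. KO replicate 3 is among the 4 in conflict with their labels.

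All 9 tested small-subunit genes specific to mitochondria had a log2 fold change below 0 in ITA against KO, with a median of -0.29, whereas 6 of 16 small-subunit genes with a bacterial counterpart did, with a median of 0.06. Without ITA replicate 3 the counts were 6 of 9 and 3 of 16, and the medians were -0.48 and 0.16. Without the 4 libraries they were 6 of 9 and 4 of 16, with medians of -0.58 and 0.25. With the pool as a term, which sets ITA replicate 1 against KO replicate 3, they were 6 of 9 and 3 of 16. The medians were then -0.04 and 0.20. In the large subunit 13 of 20 mitochondria-specific and 14 of 30 bacterial-type genes were below 0, with medians of -0.14 and 0.01. The difference between the classes was not tested.

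Mrps31, whose values are given above, had the lowest log2 fold change of the set in ITA against KO, -1.13 ± 0.39 (SE), with an edgeR adjusted p of 0.514. Its ITA and KO ranges overlapped only through the library labelled ITA replicate 1 at 22.4 CPM and that labelled KO replicate 3 at 19.5 CPM. The value was -0.90 without ITA replicate 3 and -1.14 without the 4 libraries. With the pool as a further term, which leaves ITA replicate 1 against KO replicate 3, it was 0.20. Mrpl50 (chr4:49512596-49521093), a mitochondria-specific large-subunit protein, was at 26.2, 20.8 and 21.4 CPM in WT, 16.4, 37.4 and 21.3 CPM in KO, and 18.5, 10.9 and 9.41 CPM in ITA. Its log2 fold change was -0.95 ± 0.35, with an edgeR adjusted p of 0.523, and the library labelled KO replicate 2 was the highest of the 9.

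Mrpl58 (chr11:115403752-115412674), a peptidyl-tRNA hydrolase built into the large subunit that can free stalled ribosomes, was at 21.96, 12.8 and 14.1 CPM in WT, 21.7, 26.5 and 17.7 CPM in KO, and 18.8, 12.3 and 6.13 CPM in ITA. Its log2 fold change of ITA against KO was -0.82 ± 0.38, with an edgeR adjusted p of 0.597, and became 0.08 with the pool as a further term. Mrpl18 had -0.65 ± 0.32, with 0.30 under the same term, which leaves ITA replicate 1 against KO replicate 3. Mrps35, a mitochondria-specific small-subunit protein, was at 16.3, 17.3 and 21.1 CPM in WT, 28.5, 15.4 and 18.3 CPM in KO, and 17.0, 10.9 and 16.9 CPM in ITA, with overlapping groups.

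Every ITA library lay above every KO library in 1 gene, Mrpl19, and below in 2, Mrpl35 and Mrps30. The shares over all tested genes were 5.61% above and 5.29% below. Mrpl19, homolog of a bacterial protein at the face between the subunits, was at 28.1, 15.9 and 44.7 CPM in WT, 19.7, 20.2 and 20.9 CPM in KO, and 28.6, 42.8 and 21.4 CPM in ITA. The KO libraries were nearly equal, and the gap to the lowest ITA library was narrow. On the opposite strand, exons of Gcfc2 overlap 36.0% of the exon length of Mrpl19.

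ITA against WT contrasts cells that differ in both Irg1 and added itaconate, and it shares its libraries with the other comparisons. As pools were read here, all WT libraries are in pool 1 and no ITA library is. Between these groups, the pool therefore cannot be told apart from Irg1 and itaconate. No gene of the set was called by edgeR (0 of 76, beside 0%). At an unadjusted p under 0.05 there were 5, Mrpl35, Mrpl39, Mrpl40, Mrpl50 and Mrpl46, beside 8.89% of all genes. DESeq2 called 14 genes of the whole table (0.13%) and limma-voom 0 (0%), none in the set. The log2 fold change was below 0 for 59 of 76 genes, beside 50.9% of all, with medians of -0.19 in the large and -0.25 in the small subunit. Without ITA replicate 3, 45 genes were below 0 and the medians were -0.04 and -0.10. Without the 4 libraries, which leaves 1 WT library, 46 were, with medians of -0.11 and -0.13. Without ITA replicate 1, 62 were, with medians of -0.38 and -0.39. All 9 mitochondria-specific small-subunit genes were below 0, with a median of -0.35. They were 7 of 9 without ITA replicate 3, 6 of 9 with a median of -0.14 without the 4 libraries, and 4 of 9 with a median of 0.14 with the pool as a term. In the fit with the pool, ITA enters only through ITA replicate 1 and KO replicate 3.

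Every ITA library lay below every WT library in 6 genes, Mrpl34, Mrpl38, Mrpl39, Mrpl40, Mrpl50 and Mrps24, and above in 1, Mrpl46. The shares over all tested genes were 7.25% below and 7.3% above. Mrpl35 had the lowest log2 fold change, -1.34 ± 0.43, with an edgeR adjusted p of 0.515, and -0.12 without the 4 libraries in conflict. Mrpl39 had -0.77 ± 0.29 (adjusted p of 0.529) and Mrpl40 had -0.60 ± 0.26 (adjusted p of 0.549) in the same edgeR fit. Without the 4 libraries these were -0.69 and -0.44. Mrps24, homolog of bacterial S3, was at 39.5, 42.6 and 42.3 CPM in WT, 32.6, 32.5 and 32.0 CPM in KO, and 36.9, 31.4 and 8.99 CPM in ITA. The 3 KO libraries were nearly equal and 1 ITA library lay far below, so that the log2 fold change of -0.69 ± 0.39 was -0.27 without ITA replicate 3. Mrps31, at -0.61 ± 0.39, had 0.04 without the 4 libraries and 0.96 with the pool as a term.

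**Figure D3:**
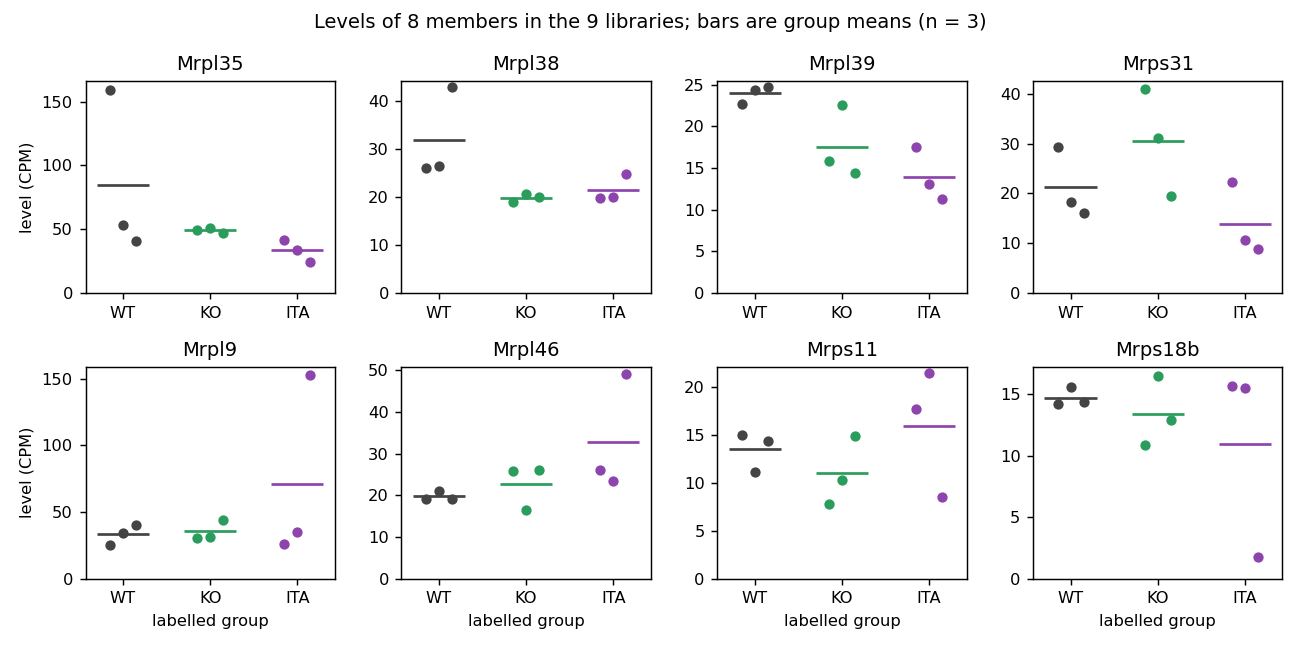
Level in CPM of 8 genes in the 9 libraries, by labelled group, on linear axes from 0. Points are libraries in replicate order and bars are group means. A single library stands far from the others of its group in WT for Mrpl35 and in ITA for Mrpl9, Mrpl46 and Mrps18b. All ITA libraries lie below all WT libraries in Mrpl39 and above them in Mrpl46.

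Where single libraries held most of the set's spread, the library labelled ITA replicate 3 was the usual one. It was the lowest of the 9 for 39 of 76 genes, or 51.3%, beside 26.0% of all tested genes. By subunit the counts were 24 of 48 and 15 of 28. The library labelled KO replicate 1 was the lowest for 16 genes, 21.1% beside 13.3%, and that labelled WT replicate 3 was the highest for 19, 25% beside 12.4%. On the log2(CPM + 1) scale, the deviation of a gene from its own mean over 9 libraries had a median of -0.54 over the set in ITA replicate 3, beside -0.04 over all tested genes. In KO replicate 1 the 2 values were -0.25 and -0.01. The share of reads that the counter assigned to no feature was also highest in the library labelled ITA replicate 3, at 33.7%, against 23.1% to 28.4% in the others. Where those reads lie is not known. Its part in the low levels was not tested.

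**Figure D4:**
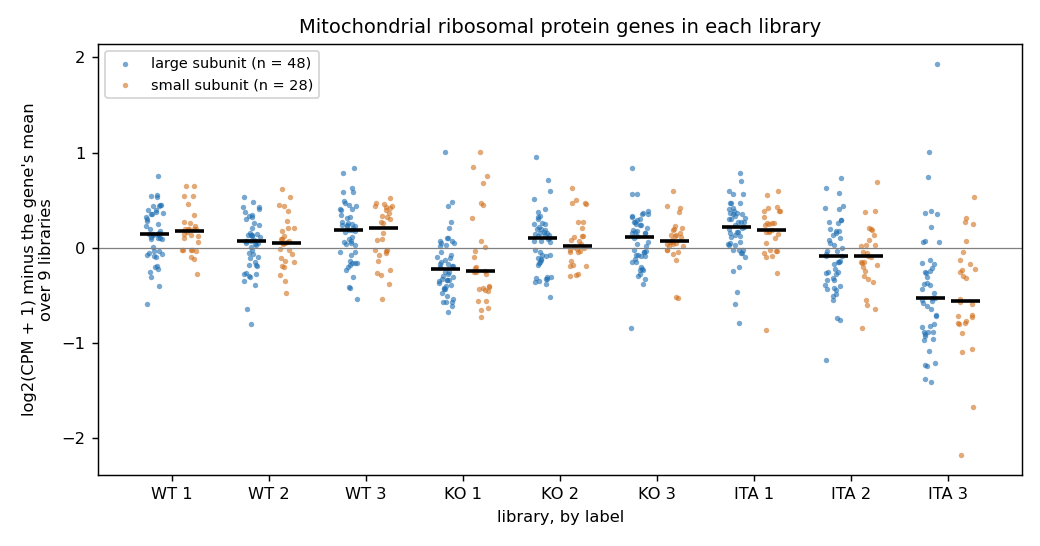
Deviation of each tested gene from its own mean over 9 libraries, on the log2(CPM + 1) scale, for 48 large-subunit and 28 small-subunit genes. Points are genes and black bars are medians. The medians of both subunits are lowest in ITA replicate 3, at -0.53 and -0.56, and next lowest in KO replicate 1, at -0.23 and -0.25.

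A few genes went the other way or far further in that library. Mrpl9 (chr3:94443318-94451130) was at 25.7, 34.3 and 40.5 CPM in WT, 30.8, 31.4 and 44.4 CPM in KO, and 25.8, 35.2 and 153 CPM in ITA, so that the library labelled ITA replicate 3 held 3.44 times the next highest level. Its log2 fold change of ITA against KO, 1.00 ± 0.51 (edgeR adjusted p of 0.621), was -0.23 without that library. Mrpl46, of the central protuberance, was at 19.1, 21.0 and 19.1 CPM in WT, 25.8, 16.4 and 26.1 CPM in KO, and 26.0, 23.4 and 49.2 CPM in ITA. Its head-to-head neighbour Mrps11 was at 15, 11.2 and 14.4 CPM in WT, 7.87, 10.4 and 14.96 CPM in KO, and 17.7, 21.5 and 8.57 CPM in ITA. In ITA replicate 3 the pair thus stood apart in opposite directions, Mrpl46 at its highest and Mrps11 next to its lowest, with 41 bases between their RefSeq starts. In GENCODE the exons of the pair overlap by 173 bases on opposite strands, and whether counting used the strand is not known.

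Mrps18b (chr17:35910379-35916389) was the most extreme on the low side. It was at 14.2, 15.5 and 14.3 CPM in WT, 10.9, 16.5 and 12.9 CPM in KO, and 15.6, 15.5 and 1.798 CPM in ITA. The next lowest library held 6.03 times the level of ITA replicate 3. Neither paralog was as low there: Mrps18c was at 64.9 CPM, within its range elsewhere, and Mrps18a was at 17.6 CPM, below 25.9 CPM in the next library. Its log2 fold change of ITA against KO was -0.29 ± 0.52, and 0.20 without that library.

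The summed levels of the 2 subunits were low in the same 3 libraries, those labelled KO replicate 1 and ITA replicates 2 and 3. Summed over all members, the large subunit stood at 2099, 1748 and 1896 CPM in WT, 1667, 1878 and 1833 CPM in KO, and 1935, 1682 and 1522 CPM in ITA. The small subunit stood at 1159, 1024 and 1089 CPM in WT, 959.6, 1026 and 1027 CPM in KO, and 1112, 933 and 711 CPM in ITA. Both sums were lowest in ITA replicate 3, and KO and ITA libraries overlapped in each. The ratio of the sums was 1.75 ± 0.053 in WT, 1.78 ± 0.0466 in KO and 1.89 ± 0.215 in ITA (SD, n = 3), and the groups overlapped.

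The higher ratio in ITA came from 1 library, at 2.14, whereas the other 8 lay between 1.71 and 1.83. Without Mrpl9 that library had 1.92, and without both Mrpl9 and Mrpl42 it had 1.72, beside 1.60 to 1.73 in the other 8 on the same basis. Both genes were at their highest in that library, so leaving them out was bound to lower its ratio more than the others. Small-subunit genes at their lowest there, such as Mrps18b and Mrps24, were left in. The large-subunit sum runs over more genes than the small-subunit sum, so the ratio says nothing of the number of ribosomal subunits. By place in the ribosome instead of by symbol, the ratios were 1.97 in WT, 2.05 in KO and 2.12 in ITA.

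**Figure D5:**
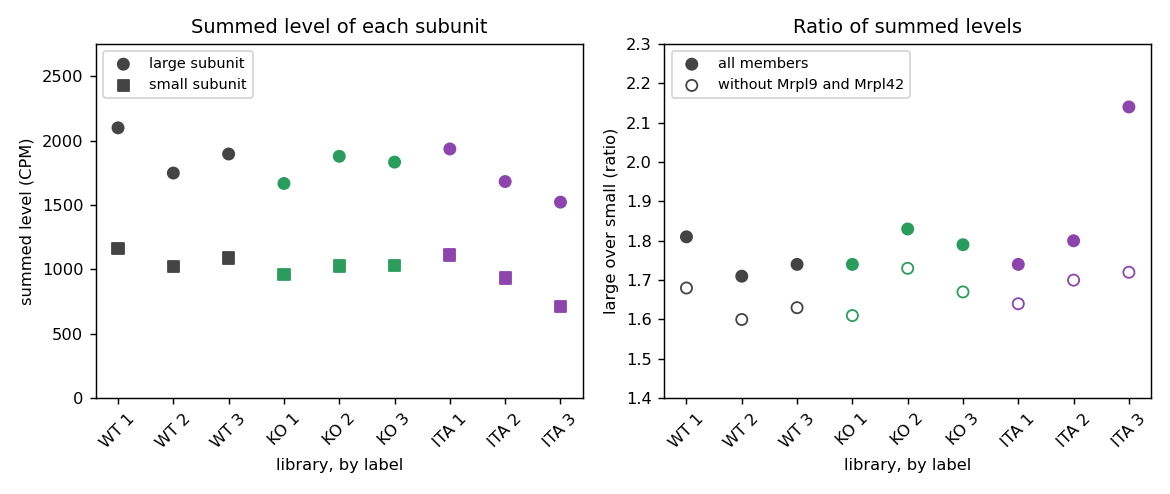
Left, summed level of the large-subunit and small-subunit genes in each library in CPM, on an axis from 0. Right, the ratio of the 2 sums with all genes (filled) and without Mrpl9 and Mrpl42 (open), on an axis that does not start at 0. The library labelled ITA replicate 3 has the lowest sums, 1522 and 711 CPM, and a ratio of 2.14, which is 1.72 without these 2 genes.

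Gene by gene, levels across the 9 libraries were weakly related. Pearson's r between log2(CPM + 1) values had a median of 0.29 over 1128 large-subunit pairs, 0.26 over 378 small-subunit pairs and 0.31 over 1344 pairs across subunits. Between genes of the set and all other tested genes it was 0.01. Without the library labelled ITA replicate 3 the medians were 0.18, 0.17 and 0.19. Pairs share the same libraries, depth and scaling, so these values are a description. Pairs within a subunit were thus no more alike than pairs across subunits.

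Mrpl30 and Mrpl57 followed the profile of the set most closely, with r of 0.98 each over 9 libraries, and Mrpl36 had 0.95. The profile is the mean of z-scores over the tested genes of the set, these genes included. Mrpl9, Mrpl46 and Mrpl43 ran against it, with r of -0.78, -0.77 and -0.72. Outside the set, the genes with the most similar profile were Oas2, Gde1, Ube2a, Yif1b and Gm49342, with r from 0.969 to 0.991 over 9 libraries and 0.93 to 0.97 without ITA replicate 3. They were picked from all tested genes for this likeness.

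Of further members with known roles, Mrpl12 forms the stalk that recruits translation factors. It was at 19.9, 19.9 and 21.8 CPM in WT, 22.4, 28.0 and 16.7 CPM in KO, and 32.7, 21.7 and 14.0 CPM in ITA, with all groups overlapping. Mrps12, of the decoding centre, was at 29.3, 17.96 and 34.9 CPM in WT, 16.0, 29.4 and 26.5 CPM in KO, and 30.3, 29.2 and 21.7 CPM in ITA. Neither gene had a group apart from the rest, and their log2 fold changes lay between -0.19 and 0.18. Mrpl44, related to ribonuclease III, was at 17.2, 21.3 and 24.1 CPM in WT, 12.6, 20.1 and 22.3 CPM in KO, and 19.7, 20.6 and 9.09 CPM in ITA.

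Mrpl41, a mitochondria-specific large-subunit protein, was at 24.0, 20.3 and 22.9 CPM in WT, 12.7, 21.1 and 22.5 CPM in KO, and 19.8, 20.5 and 13.6 CPM in ITA. Mrpl41 and Mrpl44 had the same shape, with the libraries labelled KO replicate 1 and ITA replicate 3 low and the other 7 close together. Mrps34, needed for a stable small subunit, was at 12.2, 19.7 and 11.2 CPM in WT, 8.89, 11.2 and 17.2 CPM in KO, and 15.1, 14.5 and 6.87 CPM in ITA. Its exons are overlapped over 37.0% of their length by Nme3 on the same strand, for which the table lists no read, and over 63.4% by Mapk8ip3 on the opposite strand. Mapk8ip3 had 255 to 1007 reads and Mrps34 65 to 252. Without knowledge of the strand in counting, it is not known to which gene, if any, reads in the shared stretch were assigned. Mrps36, the gene of the set whose product is no ribosomal protein, was at 34.0, 31.9 and 42.3 CPM in WT, 26.1, 31.9 and 41.8 CPM in KO, and 34.9, 29.3 and 16.3 CPM in ITA, and r with the mean profile was 0.92.

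Overlapping genes limit some of these values. On the opposite strand, exons of another gene overlap those of 28 of the 78 genes. The libraries were strand-specific, but whether counting used the strand is not given in the sources used here. How reads in the shared stretches were assigned is therefore not known, and some may have been counted for neither gene. The counter set aside 0.27% to 0.44% of a library's reads as ambiguous between genes. The largest such overlap was that of Mrps25 by Nr2c2, 69.8% of the exon length. Same-strand overlaps touch 8 genes, among them Mrps6 (19.9% by Gm49711) and Mrps24 (15.4% by Urgcp).

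Mitochondrial ribosomal proteins with other names gave no lean of their own. Of Dap3, Ptcd3, Aurkaip1, Chchd1 and Gadd45gip1, 3 of 5 were below 0 in KO against WT, 2 in ITA against KO and 2 in ITA against WT, with medians of -0.03, 0.05 and 0.02 and no call. Dap3, a small-subunit protein that binds GTP, had 0.62 ± 0.32 in ITA against KO, with 70.6 CPM in ITA replicate 3 and 27.5 to 36.7 CPM elsewhere. Gadd45gip1 had 0.50 ± 0.30 in KO against WT.

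The rest of the mitochondrial translation system had no edgeR call in any of the 3 comparisons. Of 18 translation factors and accessory genes (Oxa1l, Lrpprc, Slirp, Letm1 and Mettl17 among the latter), 9 were below 0 in KO against WT, 10 in ITA against KO and 7 in ITA against WT, with medians of 0.02, -0.04 and 0.07. Mrrf, the ribosome recycling factor, had -1.30 ± 0.53 in ITA against KO, and Oxa1l, which inserts new proteins into the inner membrane, had -0.78 ± 0.29 in ITA against WT. A list of 22 genes of tRNA charging held aminoacyl-tRNA synthetases and the amidotransferase subunits Qrsl1, Gatb and Gatc. Of its genes 14, 11 and 14 were below 0, with medians of -0.08, -0.06 and -0.12. Gars, the glycyl-tRNA synthetase of cytosol and mitochondria, had -0.69 ± 0.30 in ITA against WT.

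Of 24 genes of ribosome assembly and RNA modification, 9, 17 and 15 were below 0 in the same order, with medians of 0.04, -0.26 and -0.16. Tfb1m, which methylates the small ribosomal RNA, had 0.99 ± 0.48 in KO against WT and -1.48 ± 0.49 in ITA against KO, and those 2 comparisons share the KO libraries. In these it was at 13.5, 7.41 and 4.13 CPM. Gtpbp10, a GTPase of large-subunit assembly, had 1.19 ± 0.50 in ITA against WT. Of 23 tested genes in a mixed list of mitochondrial RNA synthesis and turnover, mitochondrial DNA replication (Polg, Twnk) and nuclear regulators (such as Nrf1, Gabpa and Yy1), 12, 14 and 11 were below 0, with medians of -0.06, -0.19 and 0.04. Yy1, the factor whose letters were searched above, had 0.86 ± 0.37 in ITA against KO, with 348 CPM in ITA replicate 2 and 83.1 to 223 CPM elsewhere. Trmt10c, part of mitochondrial ribonuclease P, had 0.63 ± 0.36 in KO against WT.

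Other gene groups of protein synthesis and respiration leaned the same way as the set. In KO against WT the medians were -0.22 over 80 cytosolic ribosomal protein genes and -0.25 over 74 nuclear respiratory chain genes. In ITA against WT both were -0.34, and in ITA against KO they were -0.11 and -0.08. Over the 13 protein-coding genes of the mitochondrial genome, which the mitochondrial ribosome translates, the medians were -0.36, -0.52 and -0.84 for KO against WT, ITA against KO and ITA against WT. Their summed level was 20470 to 24530 CPM in WT, 17280 to 21220 CPM in KO, and 17250, 13210 and 7781 CPM in ITA, lowest in the library labelled ITA replicate 3. The summed macrophage markers were lowest in that library too, at 3675 CPM, though not every marker was. Itgam was at 982 CPM there, within its range of 535 to 1360 CPM elsewhere. Mertk was at 179.7 CPM there and 179.0 CPM in WT replicate 3. The part of these shifts in the levels of the set was not tested, and the lean cannot be called particular to mitochondrial ribosomal protein genes.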

How the data were processed

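Raw read counts per gene were deposited by the authors as 1 table of whole numbers. Per the submitters' processing notes, STAR and HTSeq were used on mm10, and versions and annotation are not given in the sources used here. Per the labels' protocols, RNA was captured on oligo-dT, barcoded, pooled and amplified, with no molecular identifier mentioned. The summary lines of the counter, 42.3% to 51.0% of a library's reads, stayed out of library sizes. Symbols and positions came from the GENCODE M21 annotation of GRCm38 and promoters from RefSeq, with 21745 of 22165 identifiers matched. The number before the barcode in the labels was read as the pool, which the labels do not define: pool 1 holds all WT libraries and KO replicates 1 and 2, pool 2 holds KO replicate 3 with ITA replicate 1, and ITA replicates 2 and 3 are alone in pools 3 and 4.

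Counts were tested with edgeR 4.0.16 in R 4.3.3 (quasi-likelihood F test, two-sided, TMM scaling, minimum count of 10, all 9 libraries with group as the term), with Benjamini-Hochberg adjustment over 10781 genes at 0.05. DESeq2 1.42.0 and limma 3.58.1 (voom), other scalings and filters, each library left out, and the pool or replicate number as a term were alternatives. Genes were named by smallest p, highest and lowest level and a panel of known roles, and Mrpl9, Mrpl46 and Mrps11 after their values were seen. The set and all gene lists were chosen with earlier results of these data known. Deviations and correlations used log2(CPM + 1). The SE of an edgeR log2 fold change was derived from the test, as its absolute value over the square root of F.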

Additional observations from a re-analysis of the deposited data

How the results depend on the processing

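No gene of the set was called in any comparison under the other settings run, 21 in KO against WT and 20 in the others, which lack the fit within pool 1, and the smallest adjusted p of a gene named by its p was 0.0548 (edgeR, Mrpl35 in ITA against WT without a filter). Genes called over the whole table in KO against WT numbered 0 in the edgeR fit and 1 with DESeq2. In ITA against KO they numbered 80 without a filter, 12 with DESeq2 and 217 without the 4 libraries in conflict with their Irg1 labels. That last fit sets KO libraries of pool 1 against ITA libraries of pools 2 and 3. With 1 library left out, genes called numbered 0 to 6, 6 being without ITA replicate 1. In ITA against WT they numbered 92 without a filter, 14 with DESeq2 and 0 to 4 with 1 library left out. Without the 4 libraries, comparisons with WT have 1 WT library, and their calls are not given. The small-subunit median in ITA against KO was 0.17 without the 4 libraries. Log2 fold changes turned for Mrpl35 in KO against WT (0.31 without the 4, and -1.11 to 0.06 with 1 library left out, 0.06 being without WT replicate 1), for Mrpl58, Mrpl18 and Mrps31 in ITA against KO with the pool as a term (0.08, 0.30 and 0.20), and for Mrps31 in ITA against WT (0.96 with the pool, 0.04 without the 4). With the pool as a term, ITA enters only through ITA replicate 1 and KO replicate 3. The cause was not tested. Genes of the set below 0 numbered 43 to 57, 31 to 57 and 45 to 64 in the 3 comparisons. Library totals without scaling factors moved the median of all genes to -0.10 in ITA against KO and -0.11 in ITA against WT, and 53 and 64 genes of the set were then below 0. The ratio of subunit sums was 1.97, 2.05 and 2.12 by place in WT, KO and ITA, 1.81 in WT without the gene of highest mean CPM in each subunit, and 0.95, 0.94 and 1.03 from medians of log2 CPM.

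Deviations of same-numbered libraries from their group means had r of 0.13, 0.04 and 0.31 for WT with KO. They had -0.01, -0.07 and -0.11 for WT with ITA, and -0.20, 0.22 and 0.02 for KO with ITA. Libraries of different number had r of -0.35 to 0.24. With 3 libraries in a group and 4 in conflict with their labels, these values cannot exclude a pairing by number. With the replicate block there were 0 calls, and large- and small-subunit medians were -0.18 and -0.13 in KO against WT, -0.05 and -0.12 in ITA against KO, and -0.18 and -0.24 in ITA against WT.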
